A study of Rattus norvegicus with 6 samples.

Results

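Napepld and Pld1 are the 2 phospholipase D genes with a named probe on a long noncoding RNA and mRNA array that was hybridised with aortic RNA of spontaneously hypertensive rats (SHR). Each was taken by the RefSeq mRNA that the array gives for its probe, NM_199381 for Napepld (probe A_44_P451930) and NM_030992 for Pld1 (probe A_44_P338970). They are 2 of 38804 probes, and 2 of the 30 that could be matched to a gene name. Each probe lay on 10 spots of every array, and all of these spots were well above background and none was saturated.

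SHR become hypertensive spontaneously with age and serve as a genetic model of essential hypertension. All 6 rats were of this strain, entered the study at 12 weeks and gave their thoracic aorta at 16 weeks of age. The 3 peptide rats had been injected intravenously for 28 days with a Ganoderma lingzhi oligopeptide, from a medicinal mushroom, at a daily 5 mg/kg, and the 3 control rats had been given saline. The labels call the rats male in one field and female in another, and no normotensive strain was part of the design. The 3 controls and peptide 1 shared slide 1, and peptide 2 and 3 shared slide 2, so a difference that lies in peptide 2 and 3 alone cannot be told apart from the slide. Whole vessels were measured, so fewer cells of a type and less RNA per cell cannot be told apart. None of the 38 cell type marker genes looked for, among them the smooth muscle genes Acta2 and Myh11 and the adipocyte gene Adipoq, had a named probe, and the tissue was not checked by markers here.

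Both enzymes cut a membrane phospholipid so that phosphatidic acid is formed, but they belong to different protein families. Napepld is a zinc-dependent hydrolase of the metallo-beta-lactamase fold that releases N-acylethanolamines, such as the endocannabinoid anandamide and palmitoylethanolamide, from N-acylphosphatidylethanolamine. Pld1 carries the HKD catalytic motifs of the classical phospholipases D and turns phosphatidylcholine into phosphatidic acid and choline. It is activated by small GTPases of the Arf family and by protein kinase C, and in vascular smooth muscle it acts downstream of receptors such as that of angiotensin II. Anandamide, a product of the Napepld pathway, is known to relax arteries.

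The sequences before the start sites are shown because they compare the 2 genes without the arrays. Both are from RefSeq (assembly GRCr8, plus strand, 5′ to 3′) and hold the 250 bases before the start that RefSeq's table gives for the gene, chr4:14253010-14253259 for Napepld and chr2:112821926-112822175 for Pld1. Capitals mark the GC box GGGCGG on either strand, the sequence bound by Sp1-type factors.
Napepld: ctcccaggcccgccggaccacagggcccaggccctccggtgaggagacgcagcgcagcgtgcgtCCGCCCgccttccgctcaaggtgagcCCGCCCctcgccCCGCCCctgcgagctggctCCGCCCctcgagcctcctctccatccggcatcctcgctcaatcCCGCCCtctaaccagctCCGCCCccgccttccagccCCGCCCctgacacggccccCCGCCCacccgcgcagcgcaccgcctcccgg
Pld1: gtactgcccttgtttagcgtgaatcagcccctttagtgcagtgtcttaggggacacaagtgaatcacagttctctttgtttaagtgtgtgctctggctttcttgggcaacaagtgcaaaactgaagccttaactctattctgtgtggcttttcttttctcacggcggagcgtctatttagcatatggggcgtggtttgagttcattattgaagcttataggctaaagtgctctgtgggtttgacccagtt
The Napepld window held 8 GC boxes and the Pld1 window held 0, where 30.5% of the 33469 gene windows of this length held at least 1. G and C made up 77.2% of the Napepld window and 45.2% of the Pld1 window, against a median of 51.2%. The windows held 29 and 5 CpG dinucleotides, and 6.04% of all windows held as many as Napepld or more. Neither window held CCAAT (in 34% of windows), TATAAA (12.9%) or a CArG box, the element of smooth muscle genes (1.5%), on either strand. The probes do not tell which start site was used in these aortas, and no match says only that these letters are not in the window.

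Napepld gave a weak but measurable signal. The mean processed signal, which is background-subtracted fluorescence in scanner units, was 50.6, 46.6 and 54.7 in control 1, 2 and 3. It was 52.3 in peptide 1, 34.5 in peptide 2 and 31.8 in peptide 3. The controls and peptide 1 lay close together, and peptide 2 and 3 lay below all of them. These signals were 4.63 to 6.44 times the lowest signal called well above background on the same array. The local background signal beside the spots, which is not the whole of what the scanner software subtracts, was 12.7 to 14.2 on slide 1. It was 15.6 to 16.4 on slide 2. Before subtraction, the median signal of a spot, averaged over the spots kept, was 71.5 to 82.6 on slide 1. It was 55.7 in peptide 2 and 55.0 in peptide 3, so these 2 arrays were already lower before subtraction. The part of the background in the difference was not tested.

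Signals were set on a common scale as log2 values relative to the 75th percentile of each array. On this scale Napepld was at -2.32, -2.27 and -2.09 in the controls and at -2.20, -3.29 and -3.37 in peptide 1, 2 and 3. From high to low the order was control 3, peptide 1, control 2, control 1, peptide 2 and peptide 3. The first 4, all on slide 1, spanned less than their mean distance to the last 2, and the groups overlapped through peptide 1. The control mean was -2.23 ± 0.12 and the peptide mean was -2.95 ± 0.65 (SD, n = 3 each).

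The spread of Napepld among the control rats depended on the background correction and the scaling. With the processed signal it was small. Of all probes, 8.32% had a smaller SD over the 3 controls, where the median probe had 0.36. The share was 29.7% with quantile normalization and 17.2% with median scaling. Napepld and Pld1 were averaged over 10 spots, whereas the 38804 probes shared 41800 non-control spots, so most lay on a single spot. A single spot carries more spot error than such a mean. Its part in the shares of all probes, here and below for spread and correlation, was not tested. When normexp background correction was combined with the 75th percentile the controls were at -0.35, -1.44 and -1.35, with control 1 apart from the other controls. In that setting peptide 1 minus the control mean was -0.38 for Napepld and -0.349 for the median of all tested probes, so Napepld was not alone in the shift. With quantile normalization in place of the 75th percentile the controls were at 7.24, 7.08 and 7.12. The SD over the 10 spots of an array ran from 0.08 to 0.15, so that the mean of an array was known to 0.04 (SE). The gap between peptide 1 and peptide 2 and 3 is therefore far larger than the spot error.

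**Figure D1:**
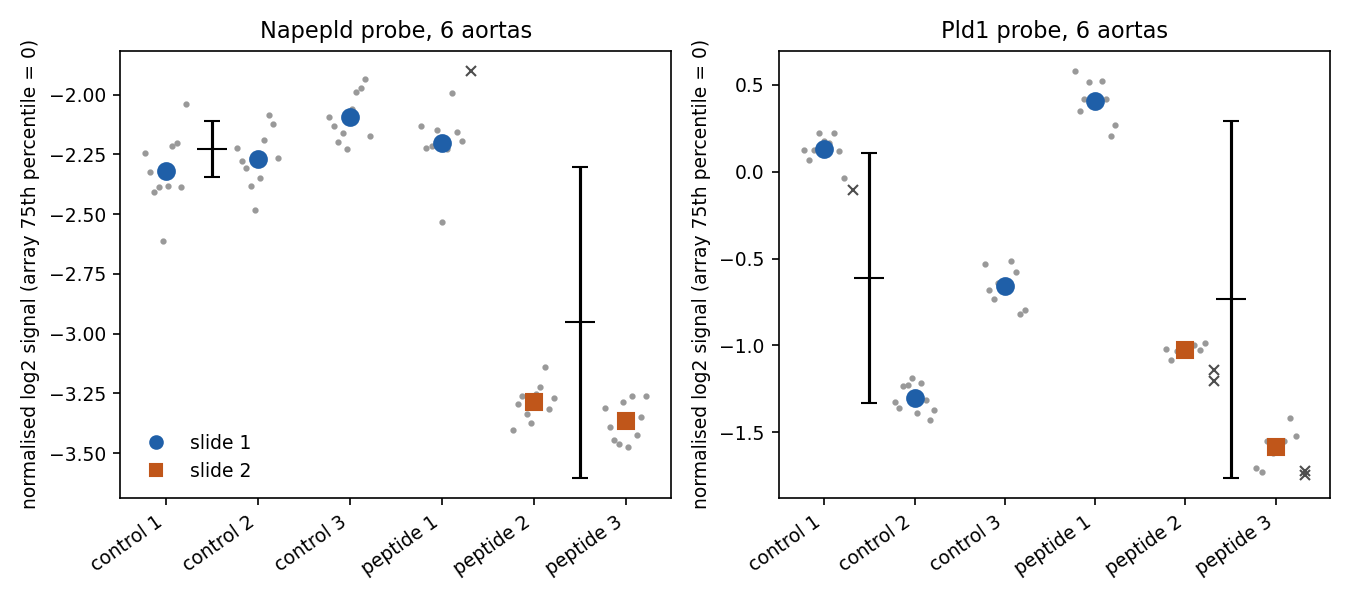
Normalised log2 signal (array 75th percentile = 0) of the Napepld and Pld1 probes in each of 6 aortas. Grey dots are single spots, crosses are spots marked as outliers and left out, large symbols are array means (circles slide 1, squares slide 2), and black bars are group means ± SD (n = 3). Napepld lies between -2.32 and -2.09 on slide 1 and at -3.29 and -3.37 on slide 2, and Pld1 spreads from -1.58 to 0.41 in both groups.

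Pld1 varied much more between rats. Its mean processed signal was 275.8, 90.7 and 147.7 in control 1, 2 and 3, and 318.7, 165.4 and 109.5 in peptide 1, 2 and 3. Control 1 and peptide 1 were high, control 2 and peptide 3 were low, and the groups overlapped throughout. On the normalised log2 scale the controls were at 0.13, -1.31 and -0.66 and the peptide rats at 0.41, -1.02 and -1.58, with means of -0.61 ± 0.72 and -0.73 ± 1.03 (SD, n = 3 each).

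The highest control exceeded the lowest by 2.71-fold for Pld1 and by 1.17-fold for Napepld. Within the peptide group the range was 3.97-fold for Pld1 and 2.24-fold for Napepld. Of all probes, 97.1% had a smaller SD within groups than Pld1 (0.89, against a median of 0.40), and 89.9% had a smaller SD over the controls alone. After quantile normalization these shares were 96.5% and 94%, and after median scaling 94.8% and 92.2%. The spots of an array differed with an SD of 0.03 to 0.12, and the SD between rats of a group was 30 times the error of an array mean. The order of Pld1 from high to low was peptide 1, control 1, control 3, peptide 2, control 2 and peptide 3.

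The design asks which RNAs differ between the aortas of peptide and control rats. Napepld was 0.72 lower in the peptide group on the log2 scale (SE 0.35, 95% interval -1.50 to 0.05), or 1.65-fold. Pld1 differed by -0.12 (SE 0.52, 95% interval -1.26 to 1.02). Neither difference passed the test, with a limma Benjamini-Hochberg adjusted p = 0.757 for Napepld and an adjusted p = 0.94 for Pld1 over 37723 probes. An exact permutation test over the 6 arrays (two-sided, smallest possible p 0.1) gave p = 0.3 for Napepld and 0.8 for Pld1. For Pld1 the interval holds log2 changes of more than 1 in both directions, so the test does not show that it was unaffected.

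The background is 0 of 37723 probes past the adjusted threshold of 0.05 (0%) with limma, and 1068 (2.83%) at an unadjusted p under 0.05. The median difference of all tested probes was itself -0.21. Without peptide 1, Napepld was lower by 1.10 (limma adjusted p = 0.161, and 0.161 to 1 over all alternatives), but treatment and slide then coincide and cannot be told apart. The sign of the Pld1 difference rested on single arrays, at 0.25 without control 1, 0.02 without peptide 2 and 0.30 without peptide 3, and -0.69 without peptide 1.

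Slide 1 holds both groups. There peptide 1 differed from the 3 controls of its slide by 0.025 for Napepld and by 1.02 for Pld1, the values that the fit with the slide as a block gives (SE 0.29 and 0.55, limma adjusted p = 1 for both). Control 1 alone deviated by 0.74 from the control mean of Pld1, so the height of peptide 1 is near that of 1 untreated rat. Pld1 was highest in peptide 1 among all 6 arrays after the 75th percentile and the quantile scaling, as were 14.4% and 15.8% of all probes. After median scaling, where 11% of probes were highest in peptide 1, Pld1 was level in control 1 and peptide 1 at 1.96. These within-slide values describe a single treated rat.

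On slide 2, peptide 2 and 3 averaged 1.10 below the control mean for Napepld and 0.69 below it for Pld1. The median probe was itself lower there by 0.335, since the 75th percentile of the processed signal was 336.4 and 327.5 on slide 2 and 223.8 to 251.3 on slide 1, while the array medians were 86.8 to 87.1 and 70.7 to 85.8. After median scaling the values were -0.77 for Napepld and -0.36 for Pld1, with all probes at -0.005, and after quantile normalization they were -0.61 and -0.46, with all probes at -0.056. Napepld in peptide 2 and 3 lay below all 4 arrays of slide 1 under each of these 3 scalings. That order was common, in 39.2% of all probes with the 75th percentile, 23.4% after quantile normalization and 22.2% after median scaling. For Pld1 peptide 2 lay above control 2 under each of the 3 scalings.

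**Figure D2:**
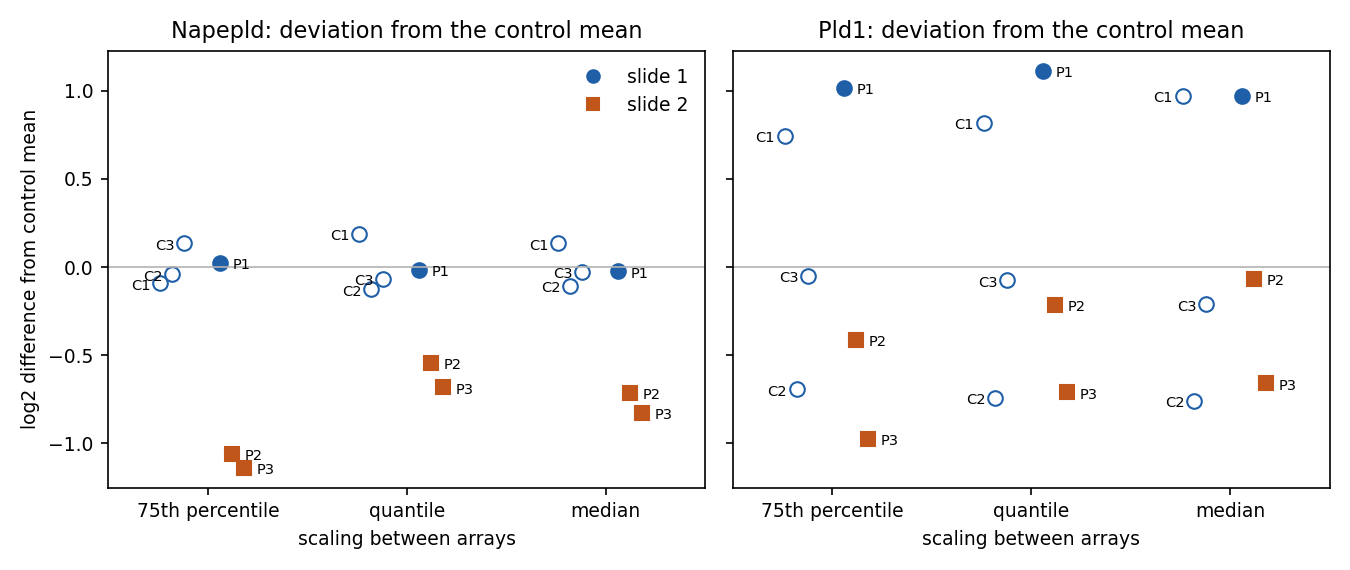
Log2 deviation of each array from the mean of the 3 controls for Napepld and Pld1 under 3 scalings between arrays. C is control and P peptide, open symbols are controls, filled symbols are peptide rats, circles are slide 1 and squares slide 2. Peptide 2 and 3 stay below the other 4 arrays for Napepld (-1.06 and -1.14 with the 75th percentile, -0.54 and -0.68 after quantile normalization), and control 1 and peptide 1 stay high for Pld1.

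**Figure D3:**
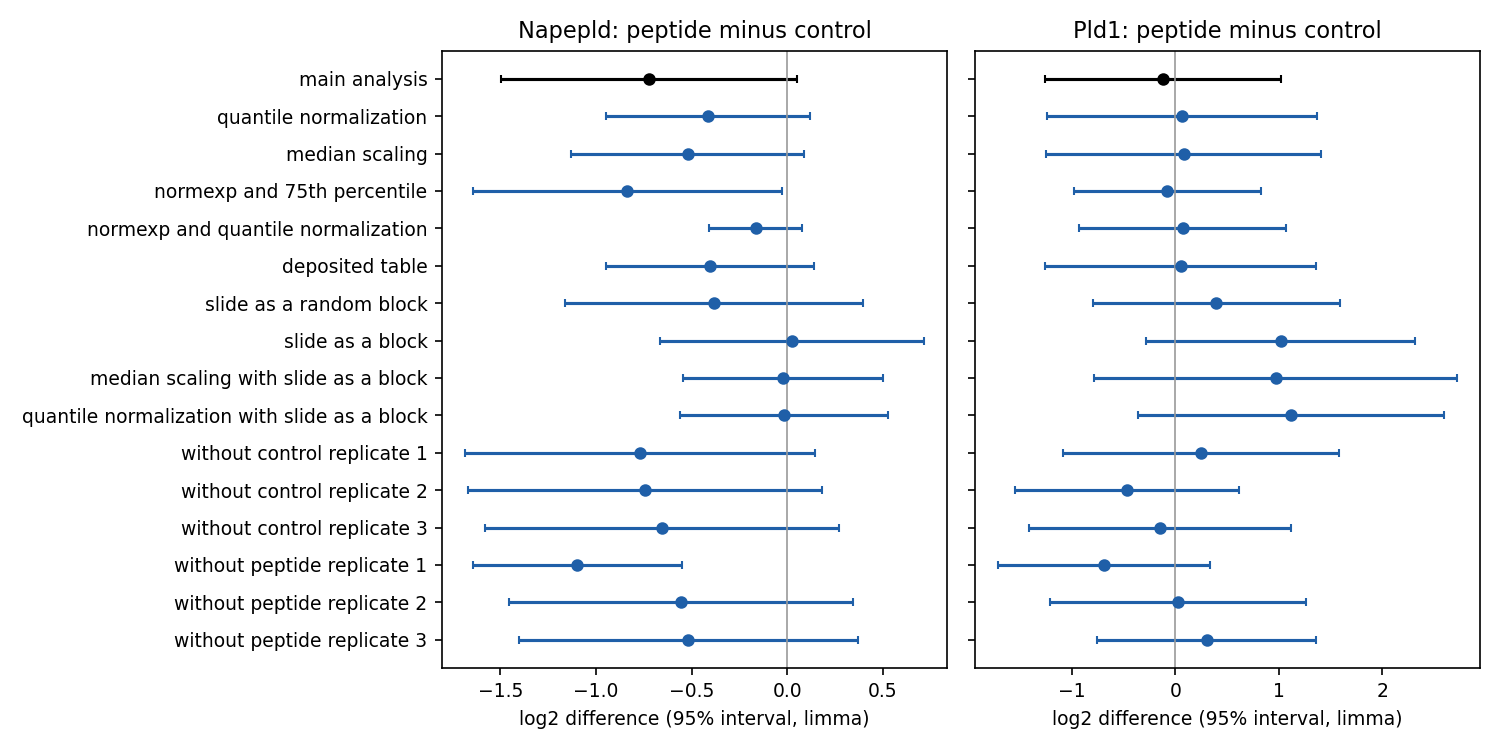
Log2 difference between peptide and control rats (points) with its 95% interval from limma (bars) for Napepld and Pld1 under the main analysis and 15 other settings. Napepld runs from -1.10 without peptide replicate 1 to 0.025 with the slide as a block, and Pld1 changes sign between settings.

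The change of Pld1 relative to Napepld within each array does not depend on the factor by which an array is scaled. Counted from the control mean, the Pld1 minus Napepld difference was 0.84, -0.65 and -0.18 in the controls and 0.99, 0.65 and 0.17 in peptide 1, 2 and 3. The groups overlapped through control 1, and their means differed by 0.60 on the log2 scale. The exact permutation test (two-sided) gave p = 0.3, where 3 against 3 arrays allow no p below 0.1. Unequal change of the 2 genes was thus not resolved, and leaving out control 1 or control 2 moved the value to 1.02 or 0.28. With the normexp background correction it was 0.76 with the 75th percentile (exact permutation p = 0.1, the smallest possible) and 0.23 with quantile normalization (exact permutation p = 0.6). In the former setting Napepld in control 1 was 0.695 above the control mean. The median of all tested probes also differed by -0.494 between the groups there. On slide 1 alone, in the main scaling, the Pld1 change minus the Napepld change was 0.99.

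The 6 arrays fell into 2 separate clusters for Napepld, 4 on slide 1 and 2 on slide 2, so a correlation over all of them includes the gap between the slides. As a description, Pearson r between Napepld and Pld1 was 0.61 and the Spearman rank correlation was 0.60 over 6 arrays (exact permutation p = 0.176 and 0.242, two-sided). The permutation treats the 6 arrays as exchangeable across the slides, so these p values do not measure covariation apart from the slide. Without peptide 2 and 3, the arrays farthest from the Napepld median, r was -0.12 over 4 arrays, so the positive r was not seen without those 2 together. Napepld spans only -2.32 to -2.09 in the 4 arrays left, so they cannot tell whether the genes covary. Leaving out peptide 2 alone gave r = 0.61 and leaving out peptide 3 alone gave 0.38. For the deviations of each array from its group mean, which keep the gap between peptide 1 and peptide 2 and 3, r was 0.76. This r is a description only. The deviations sum to 0 within each group, so permuting them over all arrays gives no exact p. For comparison, 46.5% of all probes correlated with Napepld as highly as Pld1 did, and 18.6% correlated with Pld1 as highly as Napepld did. After quantile normalization r was 0.68, and these shares were 22.7% and 15.6%.

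**Figure D4:**
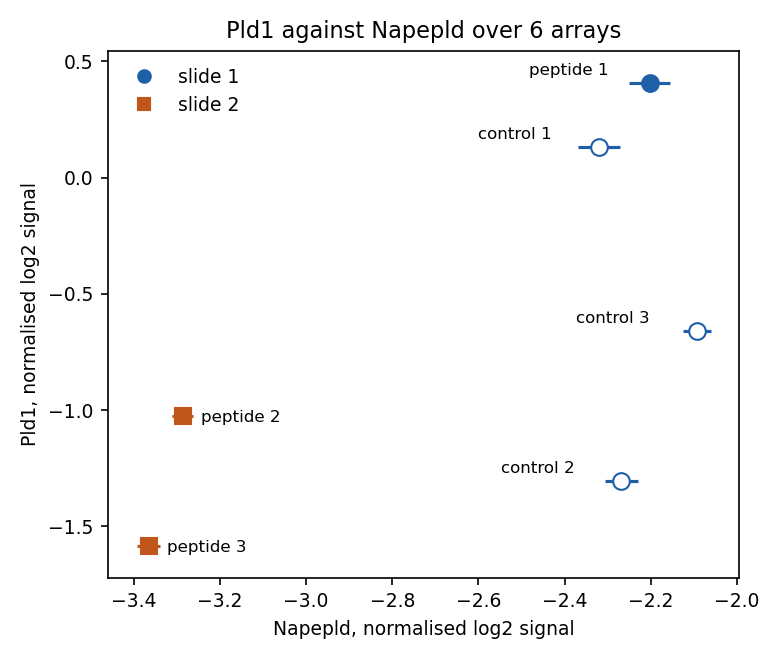
Pld1 against Napepld, both as normalised log2 signal, with 1 point per aorta and bars for the SE over the spots of the array. Open symbols are controls, filled symbols are peptide rats, circles are slide 1 and squares slide 2. On slide 1 Napepld spans -2.32 to -2.09 while Pld1 spans -1.31 to 0.41, and both slide 2 arrays lie low on Napepld.

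Among the 29 other named genes, those whose pattern over the 6 arrays was most like that of Napepld were Gdnf, a neurotrophic factor (r = 0.98), P2rx2, an ATP-gated channel (r = 0.90), and Map2, a microtubule-associated protein (r = 0.90). Gdnf was at -2.23, -2.39 and -2.03 in the controls, at -2.01 in peptide 1, and at -3.18 and -3.38 in peptide 2 and 3. It shows the low slide 2 arrays that Napepld shows, and 0.852% of all probes had at least its r with Napepld. Gdnf was also the nearest after quantile normalization (r = 0.96) and median scaling (r = 0.97). Cse1l and Pop7 took the places of P2rx2 and Map2 after quantile normalization, where r was 0.64 for P2rx2 and 0.30 for Map2. Lhcgr took that of Map2 after median scaling, where r was 0.78 for P2rx2 and 0.64 for Map2. The median r of all probes with Napepld was 0.549 in the main scaling, 0.156 after quantile normalization and 0.083 after median scaling.

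The genes most like Pld1 were Cdh2, the adhesion molecule N-cadherin (r = 0.99), Fgf2, a growth factor for smooth muscle and endothelial cells (r = 0.94), and Pdk3, a pyruvate dehydrogenase kinase (r = 0.91). Cdh2 was at 1.35, -0.12 and 0.38 in the controls and at 1.33, -0.01 and -0.54 in peptide 1, 2 and 3. It was high in control 1 and peptide 1 and lowest in peptide 3, as Pld1 was. Only 31 of 37669 probes (0.0823%) had at least this r with Pld1, and Cdh2 stayed first after quantile normalization (r = 0.98) and median scaling (r = 0.99), while Ndfip1 took the place of Pdk3 after quantile normalization. These correlations describe 6 arrays that share 2 slides and 1 scaling, and the genes were ranked for their likeness, so no test is given.

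Other genes of the 2 pathways could not be followed. Of 24 genes of N-acylethanolamine and endocannabinoid metabolism, among them the hydrolase Faah and the cannabinoid receptor Cnr1, 1 had a named probe, which is Napepld itself. Of 29 genes of phospholipase D and phosphatidic acid metabolism, among them Pld2 and the activator Arf6, 1 had a named probe, which is Pld1.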

How the data were processed

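Aortic RNA was freed of ribosomal RNA, copied from random primers and labelled with Cy3 for one-colour arrays, per the labels' protocols. The deposited scanner files hold spot intensity from Agilent Feature Extraction 11.0.1.1, per the file headers, after background subtraction by the scanner software and with no scaling across arrays. A log2 value table deposited by the authors has a median of 6.3419 in each column, so it was scaled across arrays. Each column matched its own array best (r of 0.9974 or more over probes), which settles its direction, and the merging of its spots was not given in the sources used here.

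Outlier and control spots were dropped. The log2 intensities of a probe's spots were averaged, and the 75th percentile over all probes of the array was subtracted. The 37723 probes that exceeded background clearly on 3 or more arrays entered the test with limma 3.58.1 in R 4.3.3, two-sided, with Benjamini-Hochberg adjustment. The fit was tried on simulated data with independent noise of equal spread on all arrays and no slide effect. That trial therefore does not cover the overlap of treatment and slide. Orders and correlations used the 37670 probes with a value on all arrays. Slides were told apart by the scan records in the file headers. Each array was taken as 1 rat from the treatment protocol. Alternatives were other scalings, normexp (offset 50), the deposited table, other spot averages, filters, slide and replicate blocks, and leaving out each array. The slide block under other scalings, and the correlation within slide 1, were added after seeing the data.

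The members, lists and tests were chosen with earlier results of these data known. The named genes are the members, any pathway gene with a named probe, and the 3 named genes with the highest Pearson r to each member. No pair of arrays held identical values. Gene names and start sites came from RefSeq (GRCr8), and figures from matplotlib 3.10.9.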

Additional observations from a re-analysis of the deposited data

How the results depend on the processing

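Precision is limited by the number of arrays, and Napepld lies at a low signal. A fixed slide block was fitted only to the processed signal. With it the 0.72 lower Napepld signal was near 0, at 0.025 in the main scaling (equally in slide 1 alone). It was -0.017 after quantile normalization and -0.024 after median scaling, and -0.39 with a random slide block. With normexp, peptide 1 minus the control mean was -0.38 for Napepld with the 75th percentile, where the median of all tested probes was -0.349. It was 0.002 for Napepld with quantile normalization. The Napepld difference between the groups was below 0 under the other alternatives and passed the adjusted threshold under none. It was -0.17 with normexp and quantile normalization and -0.84 with normexp and the 75th percentile. In these settings the median difference of all tested probes was itself -0.012 with quantile normalization and -0.494 with the 75th percentile. For Pld1 the sign turned after quantile normalization (0.063), median scaling (0.081), normexp with quantile normalization (0.069) and in the deposited table (0.051), with a slide block and in slide 1 alone (1.02), with a random slide block (0.39), and with a slide block after quantile normalization (1.11) or median scaling (0.97). The cause was not tested. Leaving out 1 array gave -1.10 to -0.52 for Napepld, -0.69 to 0.30 for Pld1, 0.28 to 1.02 for the Pld1 change minus the Napepld change, 0.38 to 0.80 for the correlation, and 0 to 4 probes past the threshold, with the 4 found without control 2. The correlation was -0.12 without the 2 arrays farthest from the Napepld median, and equally in slide 1 alone, which is the same 4 arrays.

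Deviations from the group mean correlated at -0.01, -0.19 and -0.24 between same-numbered arrays, so no pairing by number was seen. The check cannot exclude a pairing, because each group has few arrays and the peptide deviations hold the gap between the slides. The replicate block leaves the differences unchanged by design, because each number pairs a control with a peptide array. They were -0.72 for Napepld, -0.12 for Pld1 and 0.60 for the Pld1 change minus the Napepld change. Their precision can change. The SE was 0.39 with the block and 0.35 in the main analysis for Napepld, and 0.38 and 0.52 for Pld1. With the block 0 probes passed the threshold.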
